A study of Mus musculus with 13 samples.

Results

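The genes followed here in mouse blood-forming cells, 9 in all, were grouped as stem cell surface and adhesion genes, though not all encode surface proteins. They are Procr, Slamf1, Esam, Robo4, Abcg2, Fgd5, Pdzk1ip1, Ctnnal1 and Sult1a1. All probes that the platform annotation assigns to these symbols were taken, 18 of the 45281 probes on the array, for 9 of 19057 genes with a symbol. RNA of sorted hematopoietic cells from mice of the C57BL/6 background had been hybridised to 13 Illumina bead arrays. The mutant mice were c-Cbl A/- or c-Cbl -/-, and the controls were c-Cbl +/+. c-Cbl is an E3 ubiquitin ligase that directs activated receptor tyrosine kinases to degradation. The labels do not spell out the allele A, the age or sex of the mice, or whether animals were pooled.

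The A/- and +/+ genotypes had 1 array each in 6 populations. The LSK cells, which lack lineage markers and carry c-Kit and Sca1, were sorted as long-term stem cells (LTHSC, CD34-Flt3-), short-term stem cells (STHSC, CD34+Flt3-) and multipotent progenitors (MPP, CD34+Flt3+). The committed progenitors, which carry c-Kit but not Sca1, were sorted by CD34 and CD16/32 as common myeloid (CMP), granulocyte-macrophage (GMP) and megakaryocyte-erythroid progenitors (MEP). The -/- genotype had 1 array, of LTHSC. With 1 array per genotype and population, the spread between replicates of a group was not measured, and tests used the 6 populations as pairs or the A/- and +/+ arrays of a population together.

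Signals are normalized log2 intensities, and a probe was detected on an array where its detection p was under 0.01. Between 30.4% and 38.0% of probes were detected per array. The 3 LTHSC arrays had unnormalized median signals of 51.7 to 52.9, against 148.31 to 191.04 on the other 10, so that LTHSC and this set of arrays cannot be told apart. The Cd34 signal, the transcript of a sort marker, was 9.08 (A/-) and 9.20 (+/+) in STHSC, against 10.14 (A/-), 10.21 (-/-) and 10.01 (+/+) in LTHSC, which goes against the gates by which these populations were sorted. It was 6.26 and 6.99 in the CD34- MEP (A/- and +/+). For LTHSC against STHSC, an effect of the array set and a problem of labels cannot be told apart. Results for that step rest on the labels as given. No array (0 of 13) showed a detected signal for Cbl, so the genotypes could not be checked. Flt3, the sort marker that sets MPP apart from STHSC, was also detected on 0 of 13 arrays, so its transcript could not check that gate.

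Hematopoietic stem cells are rare marrow cells that renew themselves and give rise to all blood lineages through progenitors of narrowing potential. They are held in their niche by adhesion and guidance receptors, and several of these surface proteins are used to sort them. Procr (EPCR, the receptor of protein C) and Slamf1 (CD150, a receptor of the SLAM family) are such sort markers. Esam is a junctional adhesion molecule shared with endothelium and platelets, and Robo4 is a guidance receptor shared with endothelium. Abcg2 is an efflux pump behind the side population phenotype. Fgd5, a guanine nucleotide exchange factor, and Ctnnal1, alpha-catulin, have served as reporter genes for mouse stem cells. Pdzk1ip1 is a small membrane protein with a PDZ-binding end, and Sult1a1 is a cytosolic sulfotransferase.

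Promoters are shown for 4 genes whose signals follow different courses through the populations: Slamf1 and Pdzk1ip1, which were both lower in MPP than in STHSC, Robo4, which was not, and Sult1a1, whose signal was high in LTHSC. Each runs from 250 bases before to 50 bases after the start of the gene, in RefSeq's annotation of GRCm38.p6, 5′ to 3′ on the gene's strand. The windows are chr1:171766882-171767181 (+) for Slamf1, chr4:115088458-115088757 (+) for Pdzk1ip1, chr9:37401722-37402021 (+) for Robo4 and chr7:126676369-126676668 (-) for Sult1a1. Capitals mark matches, on either strand, to 4 short motifs. That of ETS factors was searched as AGGAAG. For GATA factors the letters searched were AGATAA. Those of RUNX factors were TGTGGT, and the E-box was searched as CAGCTG.
Slamf1: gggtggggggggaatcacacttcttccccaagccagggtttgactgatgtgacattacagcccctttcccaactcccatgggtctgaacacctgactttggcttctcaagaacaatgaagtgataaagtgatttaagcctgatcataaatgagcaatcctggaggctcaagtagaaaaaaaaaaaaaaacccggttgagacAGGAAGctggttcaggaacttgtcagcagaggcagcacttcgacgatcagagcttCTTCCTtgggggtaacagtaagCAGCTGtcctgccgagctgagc
Pdzk1ip1: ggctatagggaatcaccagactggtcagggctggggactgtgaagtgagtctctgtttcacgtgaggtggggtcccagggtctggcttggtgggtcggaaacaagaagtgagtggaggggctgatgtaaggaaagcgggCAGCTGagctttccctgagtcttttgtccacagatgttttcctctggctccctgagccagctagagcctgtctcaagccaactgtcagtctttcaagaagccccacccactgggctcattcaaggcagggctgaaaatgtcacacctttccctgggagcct
Robo4: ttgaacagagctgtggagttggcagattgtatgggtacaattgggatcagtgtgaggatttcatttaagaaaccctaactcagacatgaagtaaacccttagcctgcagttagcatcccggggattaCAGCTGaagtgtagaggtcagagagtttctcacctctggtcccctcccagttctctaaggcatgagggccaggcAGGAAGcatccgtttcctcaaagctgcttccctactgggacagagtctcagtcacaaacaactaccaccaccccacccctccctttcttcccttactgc
Sult1a1: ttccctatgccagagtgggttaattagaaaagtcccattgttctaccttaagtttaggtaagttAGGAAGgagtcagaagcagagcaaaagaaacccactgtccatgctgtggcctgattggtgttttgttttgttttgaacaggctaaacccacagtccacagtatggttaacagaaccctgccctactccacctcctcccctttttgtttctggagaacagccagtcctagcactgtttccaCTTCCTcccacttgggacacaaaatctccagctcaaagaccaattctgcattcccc

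The promoter table held 10 entries for 8 of the 9 genes, all but Esam, and 0 of the marked matches overlapped another. The ETS letters stood in 7 of the 10 entries (of Abcg2, Fgd5, Robo4, Slamf1 and Sult1a1) and in 35.4% of all 32851 promoters. The E-box letters stood in 5 of the 10 (of Abcg2, Pdzk1ip1, Procr, Robo4 and Slamf1), against 16.3% of all promoters. Of the 10 entries 3 are of Abcg2 and share that gene. RUNX letters stood in 1 entry, of Abcg2 (16.8% of all promoters), and GATA letters in 0 (11.2%). The Ctnnal1 window held none of the 4 motifs. Of the 4 printed windows, those of Slamf1 and Sult1a1 each had 2 ETS matches, and those of Slamf1 and Robo4 held ETS and E-box letters together. These are matches of letters and not measured binding.

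A measurable signal was found for 7 of the 9 genes. Of the 18 probes 8 were detected on at least 2 arrays and were tested, 2 for Slamf1 and 1 each for Procr, Esam, Robo4, Pdzk1ip1, Ctnnal1 and Sult1a1. Abcg2 had 1 probe, detected on 0 of 13 arrays, with signals of 4.44 to 5.29. One Fgd5 probe (ILMN_2741465) was detected on 0 arrays and the other (ILMN_2741464) on the LTHSC -/- array alone, at 5.83. Neither gene could be compared between populations or genotypes with these probes, and a signal below detection does not show that the transcript was absent. The remaining 7 probes detected on 0 arrays were 1 of Procr, 1 of Slamf1, 3 of Robo4 and 2 of Ctnnal1, each beside a probe of the same gene that was detected.

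**Figure D1:**
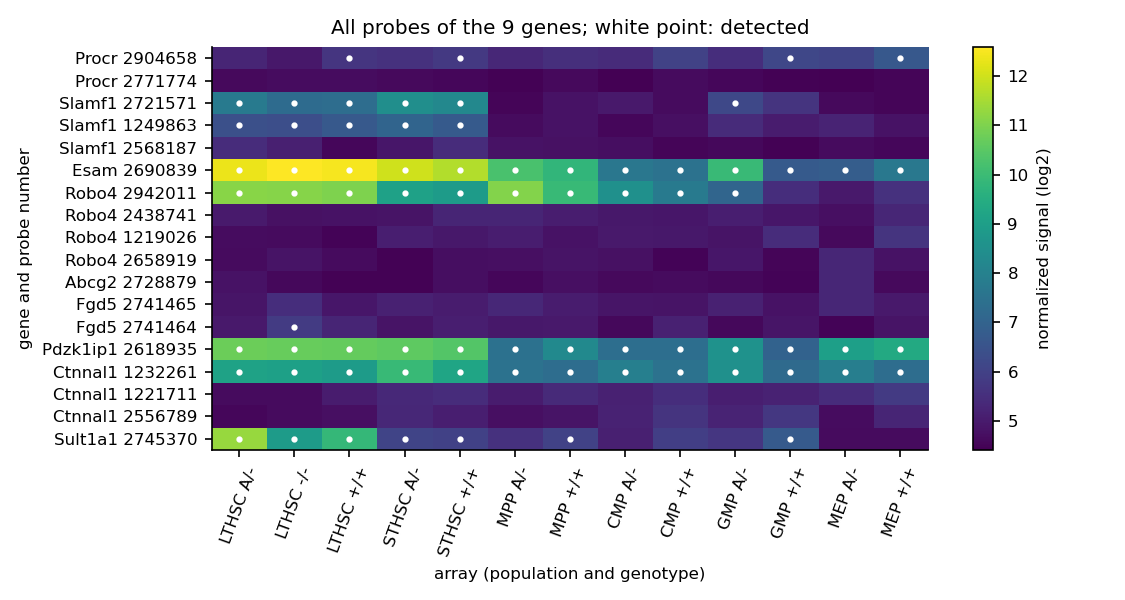
Normalized log2 signal (colour) of all 18 probes of the 9 genes on the 13 arrays, with a white point where the probe was detected. Esam, Pdzk1ip1 and Ctnnal1 each have a probe detected on 13 of 13 arrays, while the Abcg2 probe is detected on none.

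The genes followed the hierarchy in different ways. Over the 6 populations 7 of the 8 tested probes differed by limma's F test, where 54.0% of all tested probes did. The adjusted p was 1.94e-05 and 0.00043 for the Slamf1 probes, 3.59e-05 for Robo4, 0.000119 for Sult1a1, 0.000527 for Pdzk1ip1, 0.000546 for Ctnnal1 and 0.000763 for Esam. Procr did not pass (adjusted p = 0.0619). In these bulk arrays fewer cells of a type and less RNA per cell cannot be told apart. The members and the lists of other genes were chosen with earlier results of these data known. Their shares beside those of all probes are thus no independent test, here or below.

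Esam, the junctional adhesion molecule, was detected on every array, with its highest signals in LTHSC and lower ones at each later stage as far as CMP. Its signal was 12.35 (A/-), 12.59 (-/-) and 12.48 (+/+) in LTHSC, 11.98 (A/-) and 11.65 (+/+) in STHSC, and 10.24 (A/-) and 9.80 (+/+) in MPP. Among committed progenitors it was 7.64 (A/-) and 7.48 (+/+) in CMP, 9.96 (A/-) and 6.72 (+/+) in GMP, and 6.82 (A/-) and 7.69 (+/+) in MEP. The 7 LSK arrays thus lay at or above 9.80, and of the 6 committed arrays only that of GMP A/- reached this range. None of the 3 steps tested from LTHSC to CMP passed, with a difference of -0.60 ± 0.72 from LTHSC to STHSC, -1.80 ± 0.72 from STHSC to MPP and -2.46 ± 0.72 from MPP to CMP (SE, limma adjusted p = 0.624, 0.19 and 0.125).

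Robo4, the guidance receptor, had high signals in LTHSC and MPP and lower ones in STHSC between them. The signal was 11.12 (A/-), 11.10 (-/-) and 11.02 (+/+) in LTHSC, 9.07 (A/-) and 8.90 (+/+) in STHSC, and 11.07 (A/-) and 9.91 (+/+) in MPP. In CMP it was 8.51 (A/-) and 7.76 (+/+), in GMP 7.07 (A/-) and 5.47 (+/+), and in MEP 4.98 (A/-) and 5.56 (+/+). It was not detected in GMP +/+ or on either MEP array. STHSC were lower than LTHSC by a difference of -2.08 ± 0.43 (SE, limma adjusted p = 0.0191), and CMP lower than MPP by -2.36 ± 0.43 (adjusted p = 0.0276). The higher level in MPP than in STHSC, 1.50 ± 0.43, missed the threshold (adjusted p = 0.0822).

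Slamf1, the CD150 receptor, separated STHSC from MPP. Its brighter probe (ILMN_2721571) read 7.74 (A/-), 7.25 (-/-) and 7.32 (+/+) in LTHSC and 8.44 (A/-) and 8.24 (+/+) in STHSC. In MPP it read 4.53 (A/-) and 4.79 (+/+) and was not detected on either array. The second probe (ILMN_1249863) read 6.40 (A/-), 6.39 (-/-) and 6.70 (+/+) in LTHSC, 7.05 (A/-) and 6.73 (+/+) in STHSC, and 4.66 (A/-) and 4.82 (+/+) in MPP. Both probes thus separated the stem cell arrays from the MPP arrays without overlap. With 2 arrays per population such separation was frequent, as 7 of the 8 tested probes had it from STHSC to MPP and 4 were called. The share of all tested probes that separate in this way was not counted, here or for the genes below. MPP were at least 6.53-fold lower than STHSC by the first probe and at least 2.39-fold lower by the second (limma adjusted p = 0.000667 and 0.00446), both bounds set by the lowest detected signals. Past MPP the first probe was detected again only in GMP A/-, at 6.17, against 5.63 in GMP +/+, and read 4.96 (A/-) and 4.63 (+/+) in CMP and 4.60 (A/-) and 4.52 (+/+) in MEP. The second probe was detected on none of the 6 committed arrays (4.55 to 5.42).

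Pdzk1ip1 and Ctnnal1 fell at the same step as Slamf1 but were detected on every array. Pdzk1ip1 read 10.74 (A/-), 10.69 (-/-) and 10.65 (+/+) in LTHSC, 10.56 (A/-) and 10.38 (+/+) in STHSC, and 7.45 (A/-) and 8.30 (+/+) in MPP. Its signal was 7.36 (A/-) and 7.37 (+/+) in CMP, 8.58 (A/-) and 6.97 (+/+) in GMP, and 9.01 (A/-) and 9.39 (+/+) in MEP. The stem cell arrays stood above all others, and the MEP arrays stood above those of MPP, CMP and GMP. MPP were lower than STHSC by -2.60 ± 0.44, and MEP higher than GMP by 1.42 ± 0.44 (SE, limma adjusted p = 0.0117 and 0.0337).

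Ctnnal1, a relative of the cadherin-bound alpha-catenins, read 9.13 (A/-), 9.07 (-/-) and 8.90 (+/+) in LTHSC and 9.93 (A/-) and 9.21 (+/+) in STHSC. It read 7.48 (A/-) and 7.34 (+/+) in MPP, 7.93 (A/-) and 7.48 (+/+) in CMP, 8.51 (A/-) and 7.23 (+/+) in GMP, and 7.90 (A/-) and 7.34 (+/+) in MEP. The 5 stem cell arrays lay above the 8 others. MPP were lower than STHSC by -2.16 ± 0.27 (SE, limma adjusted p = 0.00406), and neither CMP minus MPP nor MEP minus GMP passed.

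Sult1a1, the sulfotransferase, had a high signal in LTHSC alone. Its signal was 11.32 (A/-), 8.90 (-/-) and 9.84 (+/+) in LTHSC, against 6.08 (A/-) and 5.97 (+/+) in STHSC. Every later array was at or below 6.72, with 5.56 (A/-) and 6.04 (+/+) in MPP, 5.12 (A/-) and 5.94 (+/+) in CMP, 5.72 (A/-) and 6.72 (+/+) in GMP, and 4.64 (A/-) and 4.65 (+/+) in MEP. The 3 LTHSC arrays did not overlap the other 10, and within LTHSC the A/- array was the highest. How many of all tested probes separate these 3 arrays from the others was not counted, and LTHSC cannot be told apart from this set of arrays. STHSC were lower than LTHSC by -4.55 ± 0.50 (SE, limma adjusted p = 0.00377), a 23.4-fold difference. It was -5.51 without the LTHSC +/+ array and -3.59 without the LTHSC A/- array, and the call was lost without the STHSC A/- array (adjusted p = 0.0636). MEP were lower than GMP by -1.58 ± 0.50 (adjusted p = 0.0355), a step between signals of which 1 of 4 was detected.

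Procr, the protein C receptor, stayed near the detection limit. It was detected on 4 of 13 arrays, all +/+, of LTHSC, STHSC, GMP and MEP. Its signal was 5.25 (A/-), 4.95 (-/-) and 5.68 (+/+) in LTHSC, 5.57 (A/-) and 5.78 (+/+) in STHSC, and 5.31 (A/-) and 5.52 (+/+) in MPP. It was 5.42 (A/-) and 6.02 (+/+) in CMP, 5.48 (A/-) and 6.15 (+/+) in GMP, and 6.09 (A/-) and 6.67 (+/+) in MEP. The MEP +/+ array had the highest value, and signals below detection have no order among themselves. EPCR protein is used to sort stem cells, but this probe was no brighter in LTHSC or STHSC than in committed progenitors.

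**Figure D2:**
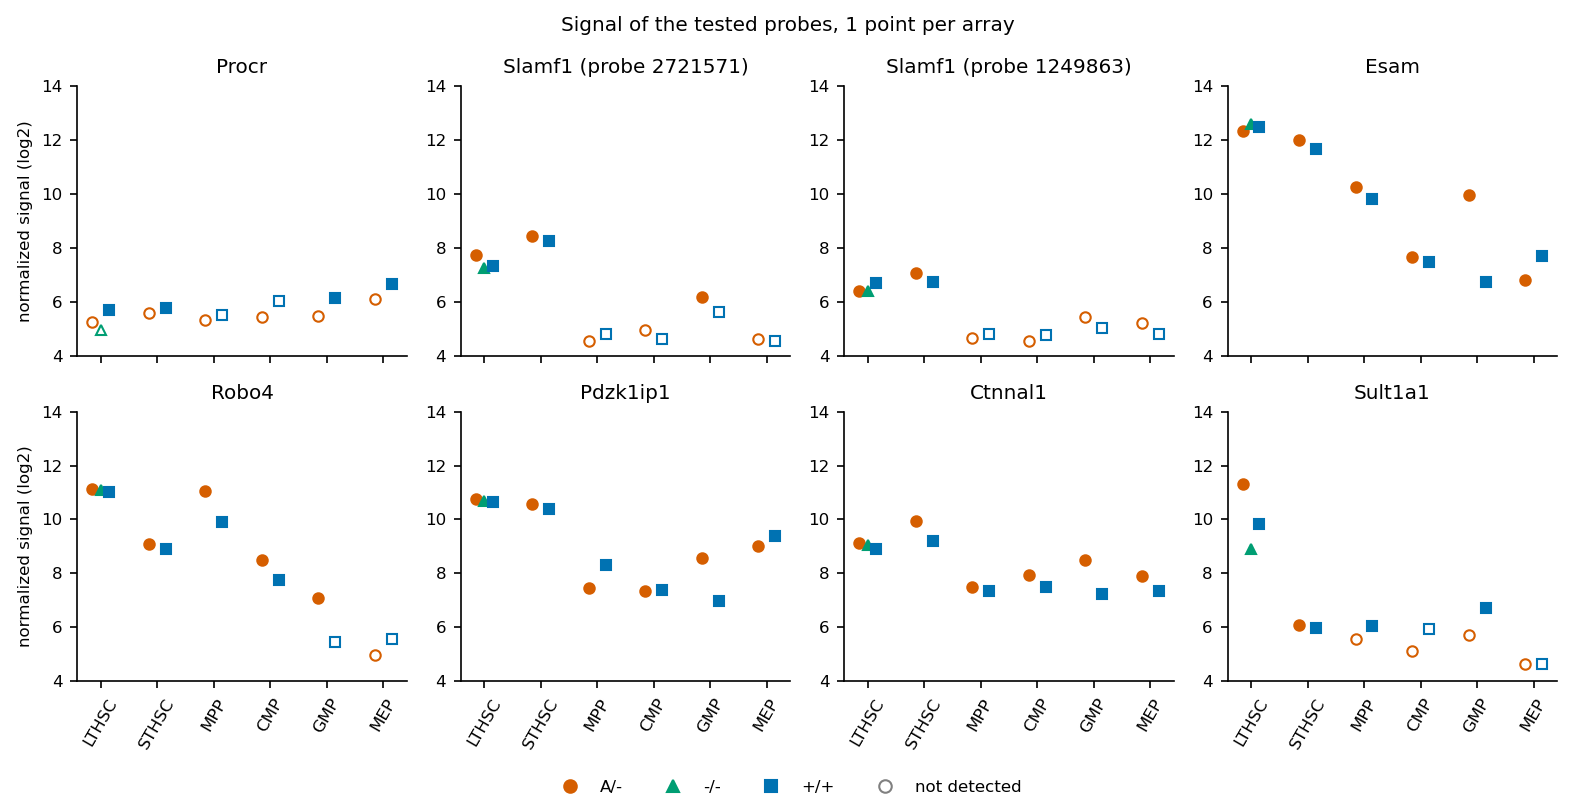
Normalized log2 signal of the 8 tested probes in each population, 1 point per array, with A/- (circle), -/- (triangle, LTHSC only) and +/+ (square) from left to right and open symbols where the probe was not detected. Slamf1 drops out of detection at MPP, Sult1a1 is high on the 3 LTHSC arrays alone, and Esam in GMP A/- (9.96) stands far above GMP +/+ (6.72).

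The genes were called at different steps between neighbouring populations. From LTHSC to STHSC 2 of 8 probes fell, Robo4 and Sult1a1, and 0 rose. Of all tested probes 10.8% were called, 5.04% lower and 5.74% higher. Slamf1 differed by 0.81 ± 0.27 and Ctnnal1 by 0.55 ± 0.27 in that step (SE, limma adjusted p = 0.0827 and 0.213). Without the STHSC A/- array neither gene remained called (adjusted p = 0.159 for Robo4), and Robo4 also lost its call without any 1 of the 3 other arrays. With the authors' processed values centred on each array's median the Robo4 difference was -1.51 (adjusted p = 0.00425). From STHSC to MPP 4 of 8 fell and 0 rose, against 4.62% of all probes called, 2.17% lower and 2.46% higher. Without the MPP A/- or the STHSC A/- array only the brighter Slamf1 probe stayed called, and Pdzk1ip1 also lost its call without the STHSC +/+ array (adjusted p = 0.0846).

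From MPP to CMP 1 of 8 fell, Robo4, against 1.77% of all probes called, 1.59% lower and 0.182% higher. That call was lost without the CMP +/+, CMP A/- or MPP A/- array (adjusted p = 0.27, 0.176 and 0.271) and without the mean-variance trend (0.0515). Between the branches of committed progenitors, MEP minus GMP, 1 of 8 rose (Pdzk1ip1) and 2 fell (Slamf1 by its first probe, -1.34 ± 0.27, limma adjusted p = 0.00377, and Sult1a1), against 31.7% of all probes called, 15.1% higher and 16.7% lower. Both genes that fell were detected on 0 of 2 MEP arrays and 1 of 2 GMP arrays, so that no fold above the detection limit can be given. The Pdzk1ip1 difference was 0.52 without the GMP +/+ array (adjusted p = 0.302), and its call was also lost without either MEP array (0.053 and 0.167). That of Sult1a1 was lost without the GMP +/+ array or either MEP array (adjusted p = 0.105 to 0.259). Esam, which lay higher in GMP A/- than in GMP +/+, was called lower in MEP without the GMP +/+ array (-2.71, adjusted p = 0.00129) and differed by 0.55 without the GMP A/- array (adjusted p = 0.332).

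Markers of other cell types moved along some of these steps. The summed signal of the megakaryocyte list (12 of 14 genes measured) was 13.11 to 13.34 on the log2 scale in LTHSC, 15.53 to 15.87 in STHSC and 11.12 to 11.46 in MPP. It went the same way as Slamf1 at both steps, and the part of megakaryocyte transcripts in the Slamf1 course was not tested. Esam and Robo4 are also endothelial genes. The summed endothelial list (14 of 14 measured, 8 tested) was 13.28 to 13.65 in LTHSC, 12.76 to 12.79 in STHSC and 13.46 to 13.77 in MPP, against 11.65 to 13.07 in committed progenitors and was thus, like Robo4, lowest among LSK cells in STHSC. In LSK cells against committed progenitors 6 of its 8 tested members rose and 1 fell, where 20.8% and 24.2% of all tested probes did. From LTHSC to STHSC 1 rose and 3 fell, against 5.74% and 5.04% of all tested probes. Among the members with signal, Egfl7 was 12.39 to 13.51 in LSK cells and 11.06 to 12.80 in committed progenitors, and Emcn was 8.42 to 10.66 in LSK cells and 4.54 to 7.77 in committed progenitors, where 3 of 6 arrays did not detect it. Egfl7 alone was 12.39 (A/-) and 12.44 (+/+) in STHSC and so made up most of the sum there. Other members took other courses. Tie1 was 8.86 (A/-) and 8.12 (+/+) in STHSC, above 7.86 (A/-) and 7.28 (+/+) in MPP. Pecam1 was 8.82 to 10.04 in LSK cells, 9.16 to 9.79 in CMP and GMP, and 4.76 to 6.57 in MEP. The members Cdh5, Kdr, Sox17 and Lyve1 were detected on 0 of 13 arrays. The part of endothelial transcripts in the Esam and Robo4 values was not tested.

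Averaged over their 3 populations, LSK cells had higher signals than committed progenitors for 6 of the 7 measured genes, although the MPP signals of Slamf1, Pdzk1ip1, Ctnnal1 and Sult1a1 lay within the range of the committed progenitors. Of the 8 probes 7 rose and 1 fell, while 45.0% of all tested probes were called, 20.8% higher and 24.2% lower. The median difference of the 8 was 1.66, against -0.07 over all tested probes. As the members were chosen with earlier results of these data known, this excess is no independent evidence. The Esam signal averaged 11.42 in LSK cells and 7.72 in committed progenitors, a 13-fold difference (log2 difference 3.70 ± 0.42 SE, limma adjusted p = 0.000144). Robo4 averaged 10.18 in LSK cells and 6.56 in committed progenitors, a 12.3-fold difference (3.62 ± 0.25, adjusted p = 8.94e-06). Robo4 was the only one of the 8 probes whose arrays did not overlap between the gates, as was the case, with LSK higher, for 4.33% of tested probes. Leaving out 1 population pair gave differences of 2.98 (without MEP) to 4.41 (without CMP) for Robo4 and 3.20 (without LTHSC) to 4.40 (without MPP) for Esam.

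The other genes differed less between the gates. The difference was 2.01 ± 0.29 for Sult1a1, 1.76 ± 0.16 for the brighter Slamf1 probe, 1.57 ± 0.26 for Pdzk1ip1 and 0.94 ± 0.16 for Ctnnal1 (SE, limma adjusted p between 3.41e-05 and 0.00126). The second Slamf1 probe was detected on 0 of 6 committed arrays and 0 of 2 MPP arrays. Its measured difference of 1.10 ± 0.17 (SE, limma adjusted p = 0.000695) thus depends on the background level, and no fold above the detection limit can be given. With the authors' values, whose LTHSC arrays have a separate scale, the difference of this probe was -0.15. With those values centred on each array's median all 8 member probes were called, this probe as higher. Leaving out 1 population pair gave 1.01 (without STHSC) to 2.85 (without MPP) for the brighter Slamf1 probe and 1.06 (without LTHSC) to 2.47 (without MPP) for Pdzk1ip1. That of Sult1a1 rested on LTHSC, being 0.45 without that pair (adjusted p = 0.129). That of Ctnnal1 was 0.48 without the STHSC pair (adjusted p = 0.0685). Procr was lower in LSK cells by -0.45 ± 0.15 (adjusted p = 0.0294), and this call was lost without the LTHSC, MPP or MEP pair (adjusted p = 0.0758, 0.0788 and 0.334). The lowest signal among detected probes was 5.47 to 5.86 on LSK arrays and 5.94 to 6.37 on committed arrays, a shift in the same direction whose part in the Procr value was not tested.

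These tests take the A/- and +/+ arrays of a population as separate samples. With 1 mean per population, 3 against 3, 0 of 8 probes passed in limma, while 0.386% of all probes were called higher. Of all 18652 tested probes 2855 had an unadjusted limma p under 0.05, and of the 8 members 2 did (Esam and Robo4). The adjusted p was then 0.0947 for Esam, 0.186 for Robo4 and between 0.369 and 0.435 for the others. The log2 differences are the same in both fits, and only the unit counted as a sample differs. The summed log2 signal of mature neutrophil markers was 16.33 to 17.66 in LSK cells and 9.86 to 16.91 in committed progenitors (12 of 12 genes measured). Among the committed arrays only that of MEP +/+ (16.91) reached the LSK range. With arrays as samples, 11 of the 12 markers rose in LSK cells and 0 fell, with a median difference of 4.245. That compares with 20.8% of all tested probes higher and 24.2% lower. The part of neutrophil transcripts in the member differences was not tested.

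**Figure D3:**
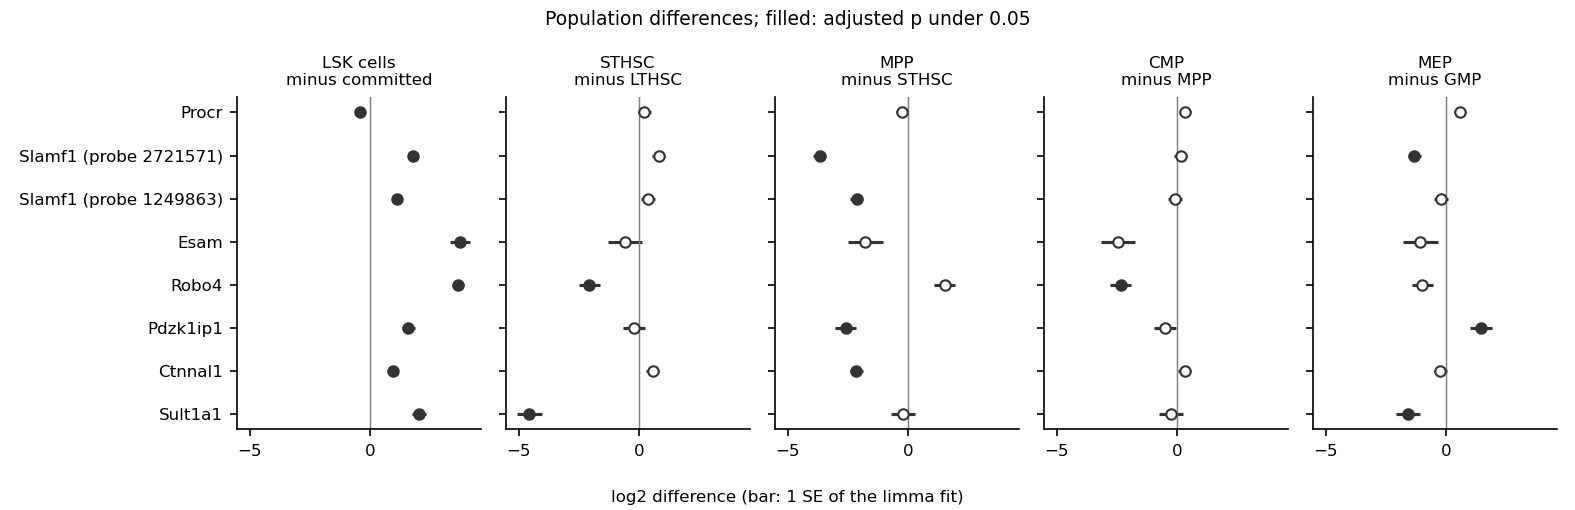
Log2 difference between populations for the 8 tested probes, with 1 SE of the limma fit as a bar and filled points where the adjusted p was under 0.05. Above 0 lie 7 probes for LSK cells minus committed progenitors, and the steps at which single genes fall differ, such as Sult1a1 at STHSC minus LTHSC (-4.55) and Pdzk1ip1 at MPP minus STHSC (-2.60).

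Of 34 other stem cell surface genes listed for comparison, 30 were measured and 24 tested. This list, too, was chosen with earlier results of these data known. In LSK cells against committed progenitors 15 of the 24 rose and 2 fell, where 20.8% and 24.2% of all tested probes did, with a median difference of 1.03. The highest were Thy1 (2.83 ± 0.15), Cd27 (2.20 ± 0.19), the platelet and endothelial selectin Selp (2.02 ± 0.17) and the angiopoietin receptor Tek (1.81 ± 0.30), and those that fell were the integrin chain Itgb1 (-0.64 ± 0.19) and the tetraspanin Cd82 (-0.51 ± 0.13; all SE, limma). From STHSC to MPP 4 of 24 rose and 5 fell, against 2.46% and 2.17% of all tested probes. Those that fell there with Slamf1, Pdzk1ip1 and Ctnnal1 were Vwf (-5.24 ± 0.55), Itga2b (-3.74 ± 0.50), Tek (-2.77 ± 0.51), Cd9 (-2.01 ± 0.44) and Itga6 (-1.50 ± 0.24). Vwf and Itga2b also belong to the megakaryocyte list. From LTHSC to STHSC 3 rose, among them Itga2b (2.30 ± 0.50), and 4 fell, among them Alcam (-2.30 ± 0.31), against 5.74% and 5.04% of all tested probes. From MPP to CMP 0 of 24 were called, against 1.77% of all tested probes. In MEP against GMP 2 rose (Cd82 and Eng) and 15 fell, led by Cd93 (-4.97 ± 0.49), against 15.1% and 16.7% of all tested probes.

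No member was called for the A/- genotype. Over the 6 pairs 0 of 8 probes were called by limma, where 0.654% of all tested probes were. Of all 18652 tested probes 2843 had an unadjusted limma p under 0.05, and of the 8 members 2 did. The 2 members were Ctnnal1 and Procr, of which Procr was tested only because of its detection on 4 +/+ arrays. Ctnnal1 averaged 8.48 in A/- and 7.92 in +/+ arrays, with a difference of 0.57 ± 0.16 (SE, adjusted p = 0.15). It was higher in A/- in 6 of 6 pairs, as were 4.62% of tested probes. Procr averaged 5.52 in A/- and 5.97 in +/+ arrays and was detected on 0 of 6 A/- and 4 of 6 +/+ arrays. As part of the +/+ signals also lay below detection, no fold above the detection limit can be given. A filter passed through +/+ arrays alone favours a lower A/- value, so the limma adjusted p of 0.201 is not read as a result. Signals below detection have no order among themselves, so no pairs were counted for it.

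Among the other genes Robo4 and Esam had the highest differences. The difference over the 6 pairs was 0.54 ± 0.25 for Robo4 and 0.53 ± 0.42 for Esam (SE, limma adjusted p = 0.344 and 0.561). Robo4 was higher in A/- in 5 of 6 pairs, and in the MEP pair neither array detected it. Esam was higher in 4 of 6. The shares of all tested probes with such counts were not taken. The Esam difference was -0.01 without the GMP pair. The difference was 0.22 ± 0.16 and 0.08 ± 0.17 for the Slamf1 probes, 0.11 ± 0.26 for Pdzk1ip1 and -0.12 ± 0.29 for Sult1a1, with limma adjusted p of 0.514 and higher. Values this close to 0 beside such errors do not show that the genotypes were alike.

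Within the LSK cells 0 of 8 probes were called for genotype and 0 had an unadjusted p under 0.05 in limma, against 0.00536% of all probes called. Within the committed progenitors 0 of 8 were called, against 0.606% of all probes called. Of all 18652 tested probes 3394 had an unadjusted limma p under 0.05 there, and of the 8 members 2 did, Ctnnal1 and Procr. Procr was detected on 0 of 3 A/- and 2 of 3 +/+ committed arrays, so its value is not read as a result. Ctnnal1 was 7.90 to 8.51 in A/- and 7.23 to 7.48 in +/+ committed progenitors, so that the groups did not overlap, as was so for 7.08% of tested probes with A/- higher. The difference was 0.77 ± 0.21 (SE, adjusted p = 0.127). The difference of the genotype effect between the gates, LSK minus committed, was called for none of the 8 (0 called and 0 at an unadjusted p under 0.05 in limma, against 0.00536% of all probes called), with Sult1a1 furthest from 0 at 0.98 ± 0.51 (adjusted p = 0.66).

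The largest single differences between genotypes were in GMP, where 1 A/- array faced 1 +/+ array and no test was possible. Esam was 9.96 in A/- and 6.72 in +/+, a 9.45-fold difference. Pdzk1ip1 was 8.58 in A/- and 6.97 in +/+ (3.05-fold), and Ctnnal1 was 8.51 in A/- and 7.23 in +/+ (2.43-fold). Robo4 was 7.07 in A/- and not detected in +/+, and was at least 2.19-fold higher. Sult1a1 was the other way, not detected in A/- and 6.72 in +/+, and was at least 1.67-fold lower. By measured values 4 of 8 probes were at least 2-fold higher and 1 at least 2-fold lower, where 3.88% and 4.36% of tested probes were. The median difference of the 8 was 0.91 in this pair and lay between -0.20 and 0.19 in the other 5. With the authors' processed values 2 of the 8 probes were at least 2-fold apart in GMP, Esam (2.34) and Pdzk1ip1 (1.06), and Ctnnal1 differed by 0.86, Robo4 by 0.66 and Sult1a1 by -0.40 on the log2 scale.

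Markers of several lineages moved in the same pair. The summed megakaryocyte signal was 14.63 in GMP A/- and 12.85 in GMP +/+, with 11 and 9 of 12 genes detected. The erythroid sum was 14.72 in A/- and 13.20 in +/+, and the neutrophil sum was 11.82 in A/- and 16.10 in +/+. The endothelial sum was 12.39 in A/- and 11.65 in +/+. Among single genes, Vwf was 11.71 in A/- and 8.68 in +/+, Itga2b was 11.53 in A/- and 9.42 in +/+, and the erythroid factor Klf1 was 11.65 in A/- and 9.38 in +/+. The part of cells of other lineages in the GMP difference was not tested.

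Outside GMP few pairs reached 2-fold. In LTHSC 1 of 8 did, Sult1a1, which was 2.78-fold higher (11.32 in A/- and 9.84 in +/+), where 1.93% of tested probes were 2-fold higher and 1.59% lower. In MPP 1 of 8 did, Robo4, which was 2.24-fold higher (11.07 in A/- and 9.91 in +/+), against 1.94% of probes higher and 4.47% lower. In STHSC, CMP and MEP 0 of 8 did, against 1.02%, 1.3% and 1.99% of tested probes that were 2-fold higher and 2.75%, 1.83% and 4.0% that were lower. The nearest below 2-fold were Pdzk1ip1 in MPP (-0.85), Esam in MEP (-0.87) and Sult1a1 in CMP (-0.82), all lower in A/-.

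No measured difference of these genes between -/- LTHSC and +/+ LTHSC reached 2-fold, and for Procr only a bound was had. In -/- minus +/+ 0 of 8 probes were at least 2-fold apart, against 1.2% of tested probes higher and 2.05% lower. Sult1a1 came nearest, at 8.90 in -/- and 9.84 in +/+, a 1.91-fold lower signal. Its A/- value of 11.32 lay on the other side of the control, so the mutant genotypes pointed in opposite directions on these single arrays, which share the +/+ array. Procr was 4.95 and not detected in -/-, and 5.68 in +/+, at least 1.16-fold lower. The other 6 probes differed by -0.32 to 0.17 on the log2 scale.

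**Figure D4:**
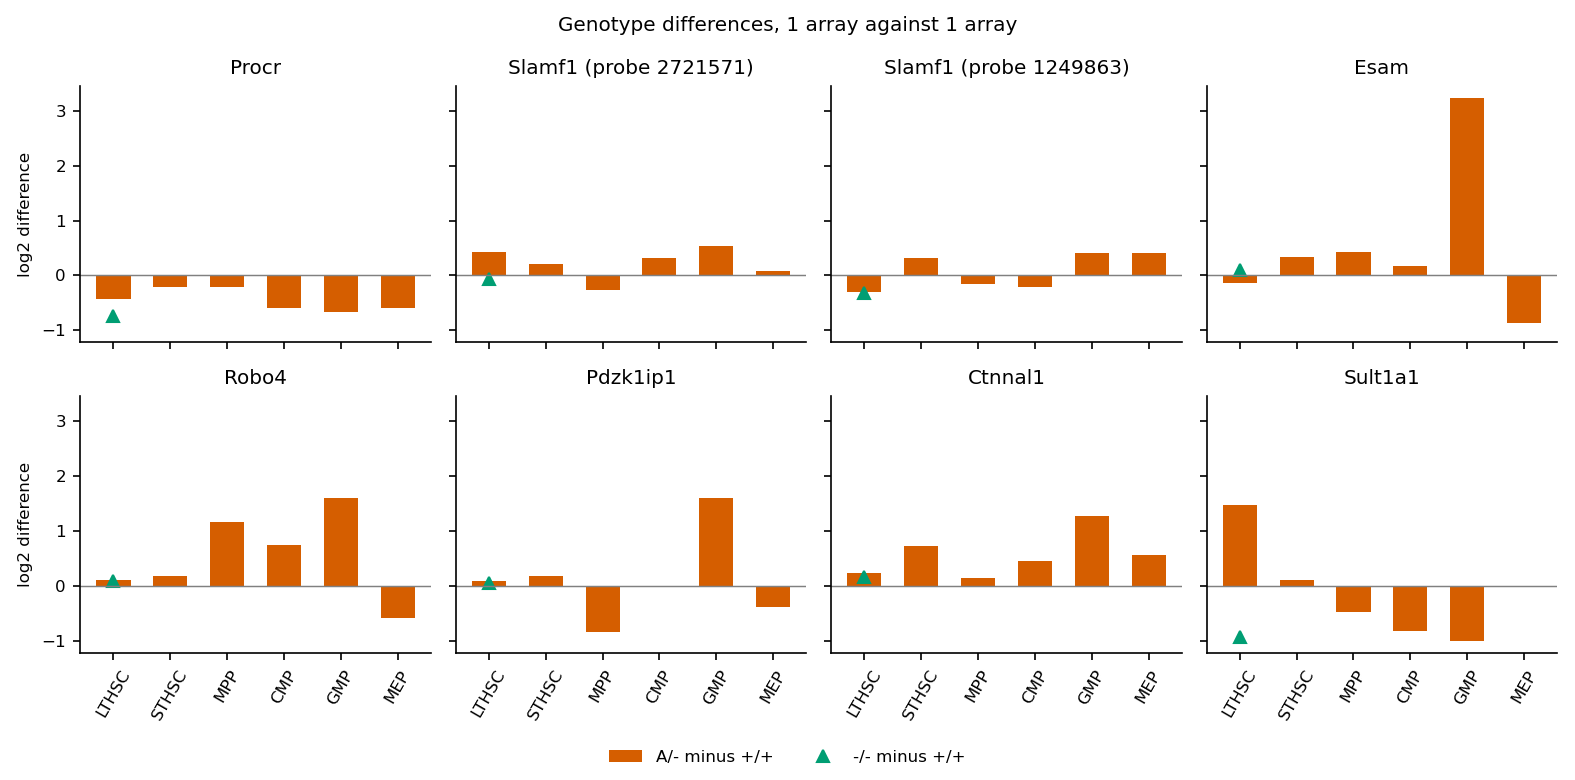
Log2 difference of A/- minus +/+ in each population (bars) and of -/- minus +/+ in LTHSC (triangles) for the 8 tested probes, each from 1 array against 1 array. Esam in GMP is the tallest bar at 3.24, Ctnnal1 lies above 0 in all 6 populations, the Procr bars rest on A/- signals below detection, and Sult1a1 in LTHSC points up for A/- (1.47) and down for -/- (-0.94).

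Across the 13 arrays, which share sorts, array sets and normalization, some of the genes varied together. The Slamf1 probes correlated at r = 0.963, Slamf1 with Ctnnal1 at 0.936, Pdzk1ip1 with Ctnnal1 at 0.83 and Esam with Robo4 at 0.825. Robo4 and Slamf1 correlated at 0.458. Procr correlated negatively with all the others, from -0.801 (Robo4) to -0.239 (Pdzk1ip1). It was detected on 4 of 13 arrays, and signals below detection have no order, so its values do not show an opposite course. All of these are Pearson correlations over 13 arrays and are given as description.

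Among 3925 genes that varied over the arrays, those most like each member were found by Pearson's r. Esam was matched most closely by Usp54 and Cd151 (both 0.97) and Hspa12b (0.969), where Cd151 is a tetraspanin that binds laminin-receptor integrins. Slamf1 was matched by Psd3 (0.954), Ddx25 (0.948) and the transcription factor Tcf15 (0.942), and Robo4 by Gm5796 (0.994), Zcchc18 (0.988) and the protease Ctsw (0.987). Pdzk1ip1 was matched by Gstt1 (0.968), Fam110c (0.967) and the transglutaminase Tgm2 (0.954), and Ctnnal1 by Nol4l (0.942), Slamf1 (0.936) and the cytokine Ctf1 (0.935). Sult1a1 was matched by Evc (0.958), Prune2 (0.945) and Gm973 (0.943), of which Evc and Gm973 were each detected on 3 arrays. Procr, low throughout and detected on 4 of 13 arrays, was matched by Pnp2 (0.929), Dbf4 and Rrn3 (both 0.91), a likeness that rests largely on signals below detection.

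Esam and Robo4 are near neighbours on chromosome 9 in RefSeq's annotation of GRCm38.p6, with 2 protein-coding genes, Robo3 and Msantd2, between them, and Cbl lies on the same chromosome. The Msantd2 probe was detected on 0 of 13 arrays. Esam and Robo4 shared the fall from LSK to committed progenitors and the higher signal in GMP A/-, and parted in STHSC, where the Robo4 signal lay below those of LTHSC and MPP while that of Esam lay between them. The other 7 genes lie on chromosomes 1 (Slamf1), 2 (Procr), 4 (Pdzk1ip1 and Ctnnal1), 6 (Abcg2 and Fgd5) and 7 (Sult1a1).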

How the data were processed

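Per the file headers, the deposited main table gives 2 values per array for each of 45281 probes, an unnormalized intensity (linear) and a detection p-value; no source used here names the scanner software or its background handling. The authors also deposited processed intensity values, brought to a common level separately for the 3 LTHSC arrays and the other 10. The unnormalized intensities were background-corrected from the detection p-values, given an offset of 16, quantile-normalized over 13 arrays and taken to log2 with limma 3.58.1 in R 4.3.3. Such values are relative, and the offset shrinks differences of dim probes. Probes took their gene from the platform annotation. The 18652 probes detected (p under 0.01) on at least 2 arrays were tested.

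The labels gave the groups. The 12 A/- and +/+ arrays were fitted in limma (lmFit, then eBayes with a trend). The population served as a block for genotype, and genotype as a covariate between populations. A probe was called where its Benjamini-Hochberg p, adjusted over all tested probes, was under 0.05. Single arrays were compared without a test, at 2-fold. A probe detected on no array of a group is given as a bound against the lowest detected signal, or without a fold. Nothing says whether arrays came from separate animals, so p-values measure the spread between these arrays. The number of arrays limits the precision.

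The members and the lists of other genes were chosen with earlier results of these data known. Named beyond the members are the 3 genes most alike by Pearson's r over 13 arrays (SD at least 0.5), called genes of the stem cell surface list, and markers of other cell types. The fit was tested on simulated data. The alternatives were 75th percentile scaling, the authors' values, an offset of 50, no filter, detection on at least 4 arrays, 1 probe per gene, no trend, population means, and leaving out each pair or array.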

Additional observations from a re-analysis of the deposited data

How the results depend on the processing

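The calls for genotype among the 8 member probes stayed at 0 under every alternative run, while the number of all probes called moved. Over the 6 populations 122 probes were called, against 76 with 1 probe per gene, 191 with the authors' values, 25 without trend, 257 without the LTHSC and GMP pairs (chosen after seeing the data) and 8 to 745 with 1 pair left out. In committed progenitors 113 were called, against 61 with 1 probe per gene, 495 with 75th percentile scaling, 194 with the authors' values, 9 without trend, 220 without filter and 1 to 379 with 1 pair left out. In LSK cells 1 was called, against 0 with 1 probe per gene, 8 with percentile scaling, 6 with the authors' values, 4 with detection on at least 4 arrays or an offset of 50, 13 without filter and 0 to 112 with 1 pair left out. For the difference between the gates 1 was called, against 2 with percentile scaling or without filter, 0 without trend and 0 to 5 with 1 pair left out. In the GMP pair 5 members were 2-fold apart, against 2 with the authors' values.

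Between populations the members called numbered 8 for LSK cells minus committed progenitors, against 0 with population means. All probes called there numbered 8394, against 17036 with the authors' values, 72 with population means and 4327 to 8690 with 1 pair left out. For STHSC minus LTHSC 2 members were called, against 7 with the authors' values, 4 with those centred on each array's median (chosen after seeing the data) and 0 to 1 with 1 array left out, and 2011 of all probes, against 18491, 4050 and 6 to 1895. Leaving out 1 array gave 1 to 4 members and 19 to 2231 of all probes for MPP minus STHSC (862 with all arrays), 0 to 1 members and 42 to 1419 probes for CMP minus MPP (331), and 1 to 3 members and 3672 to 4533 probes for MEP minus GMP (5921). Without trend 0 members were called for CMP minus MPP. A group left with 1 array is assumed to vary like the others.

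Scaling moved the balance of calls. With percentile scaling 2811 probes were higher and 7942 lower for LSK minus committed (3873 and 4521 in the quantile-normalized data), 2043 and 822 for STHSC minus LTHSC (1071 and 940), 4756 and 2681 for MEP minus GMP (2812 and 3109), 91 and 344 for CMP minus MPP (34 and 297), and 279 and 216 for genotype in committed progenitors (31 and 82). With the authors' values the splits were 741 and 16295 for LSK minus committed and 18486 and 5 for STHSC minus LTHSC, or 2985 and 1065 after centring, since their sets of arrays have no common scale.

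Directions that changed were, with the authors' values, those for STHSC minus LTHSC of Esam (1.55, but -0.20 after centring), Robo4 (0.24, but -1.51 after centring) and Pdzk1ip1 (1.87, or 0.11 after centring and 0.14 with percentile scaling), where nearly all probes lay higher before centring, for LSK minus committed of the second Slamf1 probe (-0.15), for genotype of Sult1a1 (0.068, and 0.009 with an offset of 50), and for the gate difference of Robo4 (0.10). That of Pdzk1ip1 for genotype was -0.27 without the LTHSC and GMP pairs, and that of the second Slamf1 probe for CMP minus MPP was 0.036 with percentile scaling. For LSK minus committed, the second Slamf1 probe was called higher again once the authors' values were centred. With 1 pair left out the genotype difference ranged from -0.0135 to 0.81 for Esam, -0.19 to 0.30 for Pdzk1ip1 and -0.44 to 0.056 for Sult1a1 over the 6 populations. In committed progenitors it ranged from -0.35 to 1.70 for Esam and -0.20 to 0.80 for Pdzk1ip1. In LSK cells it ranged from -0.027 to 0.31 and -0.23 to 0.081 for the Slamf1 probes, -0.38 to 0.13 for Pdzk1ip1 and -0.18 to 0.79 for Sult1a1. The gate difference ranged from -1.49 to 0.57 for Esam, -0.70 to 0.39 for Robo4 and -0.99 to 0.0041 for Pdzk1ip1. With 1 array left out CMP minus MPP ranged from -0.16 to 0.42 and -0.26 to 0.0845 for the Slamf1 probes, -1.08 to 0.066 for Pdzk1ip1 and -0.69 to 0.15 for Sult1a1, and MEP minus GMP from -2.71 to 0.55 for Esam and -0.68 to 0.18 for Ctnnal1. Except where an alternative has fewer arrays or features, the cause was not tested. The labels carry no replicate numbers, and the genotype fits paired the arrays by population. Signals near background limit Procr, Abcg2 and Fgd5.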
